A study of Mus musculus with 2 samples.

Results

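Potassium channel genes were followed through the cell classes of the hippocampus of PS19 mice with and without Zbp1. Every gene symbol of the count matrices made of Kcn, further letters and a number was taken as a member, which left out antisense and overlapping transcripts, and this gave 92 of 32285 genes. PS19 mice carry a transgene for a mutant human tau under the mouse prion promoter. The PS19 library came from mice with intact Zbp1 and the PZKO library from PS19 mice that lack Zbp1, a sensor of Z-form nucleic acids that can start inflammatory cell death. Each library is labelled as a pool of hippocampi of males, 9 months of age. Both groups thus carry the tau transgene, no mice without it were compared, and animals within a pool cannot be told apart. With 1 library per genotype there was no replicate check and no test between genotypes was made.

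Potassium channels let potassium flow down its gradient and thereby set the resting potential, repolarize action potentials and limit repetitive firing. Voltage-gated (Kv) channels are tetramers of pore subunits that open on depolarization, silent subunits modify them, inward rectifiers (Kir) and 2-pore-domain (K2P) channels carry resting and leak currents, and BK, SK and Slack channels respond to intracellular calcium or sodium. Accessory subunits bind the pore and alter its gating or its transport to the membrane. In the brain, neurons use these channels to shape firing, and astrocytes, oligodendrocytes and microglia use their own sets to clear extracellular potassium and to hold a negative membrane potential.

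Single-nucleus RNA sequencing counted unique molecular identifiers (UMIs) in 9590 PS19 and 9307 PZKO nuclei after filtering, at a median of 5849.5 and 9015 UMIs per nucleus. Levels are given as CPM, the UMIs of a gene summed over the nuclei of a class, divided by all UMIs of that class and library and expressed in the usual CPM unit. Wherever a pair of values is given, the PS19 value comes first and the PZKO value second. Brackets after a level hold its exact 95% Poisson interval, and all intervals cover counting error only. The nuclei fell into 22 classes, 13 of them neuronal. A class name stands for a cluster that resembles that cell type by its marker genes, and 5 neuronal clusters that met no list are called by genes that lead them. All markers of every named class were detected in both libraries, and their summed level was highest in the class itself except for the markers of corticothalamic neurons in PS19, which were higher in near-projecting neurons, and those of Lhx6 and Adarb2 interneurons, which were higher in oligodendrocyte precursor cells (OPCs) and in Cajal-Retzius cells. Zbp1 had 92 UMIs in the PS19 library and 38 in the PZKO library, whose kept nuclei held 100729375 and 151995959 UMIs. In the PZKO library, the choroid plexus transcript Ttr was lower in all 23 classes and clusters compared, with log2 ratios from -3.42 to -0.59, ribosomal protein genes had median log2 ratios from -0.74 to 0.02, and genes over 100 kb long had medians from 0.06 to 0.16. The libraries shared 30 barcodes among the nuclei kept.

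Of the 92 members, 69 reached 50 UMIs in some class of each library and could be assigned a leading class. Kcnk16 had no UMI in either library. The other 22 members without enough UMIs were Kcna3, Kcna5, Kcna7, Kcna10, Kcnd1, Kcng4, Kcnv2, Kcnh6, Kcnj1, Kcnj5, Kcnj12, Kcnj14, Kcnj15, Kcnk7, Kcnk15, Kcnk18, Kcnn4, Kcne1, Kcne3, Kcne4, Kcnmb1 and Kcnmb3. The same class led in both libraries for 57 of the 69 members (82.6%), and for 67.9% of the 14982 genes that met the same minimum. A neuronal class led for 36 of these 57 members and a glial, vascular or ventricular class for 21. Of the 22 classes, 13 are neuronal. How often each class led among all genes is not given, so these counts and those that follow only describe the members. Dentate granule cells led for 7 members (among them Kcna4, Kcng2, Kcnip2, Kcnj3, Kcnj4 and Kcnj6) and Lhx6 interneurons for 6 (Kcna2, Kcnab3, Kcnc1, Kcnc2, Kcnmb2 and Kcns3). All 4 Kv3 genes were led by neurons, whereas 6 of the 7 K2P genes with a shared leading class were led by glial or vascular cells.

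**Figure D1:**
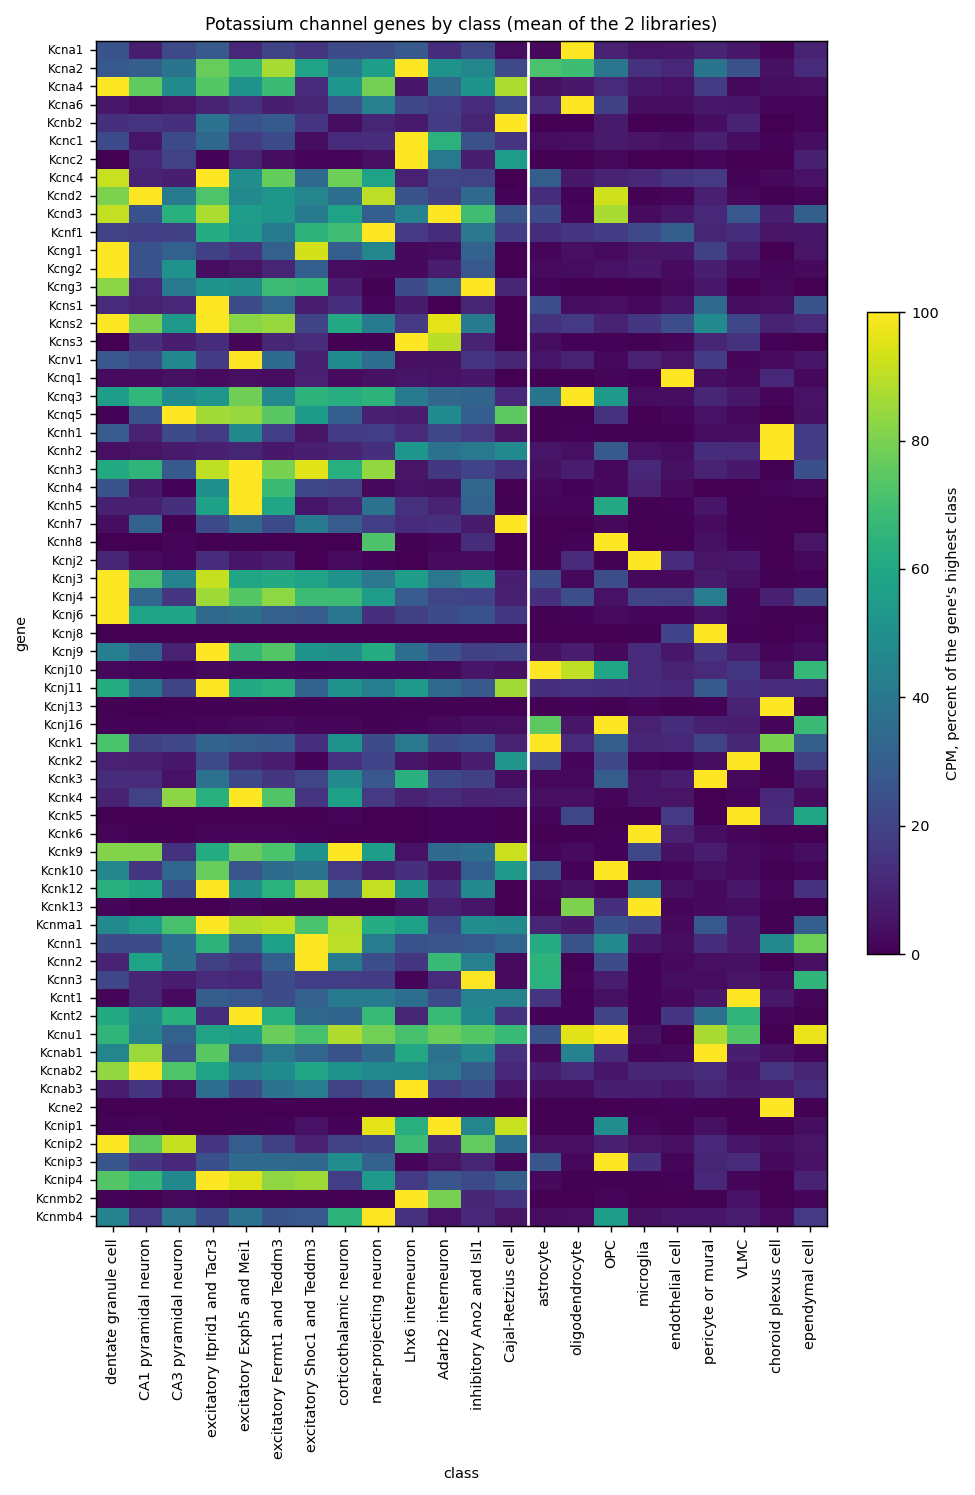
Heat map of members that reached 50 UMIs in some class of each library (vertical axis, ordered by family) over the 22 classes (horizontal axis, neuronal classes left of the white line). The colour gives the mean CPM of the PS19 and PZKO libraries as a percentage of the gene's highest class, and the yellow cells show that most voltage-gated genes peak among the neuronal classes and most K2P genes to the right of the line.

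A member was called class-specific where the same class led in both libraries by at least 2-fold over the next class. This held for 11 of 69 members, a share of 15.9%, beside 16.9% of all genes, so that class specificity was about as frequent among the potassium channel genes as among genes at large. Oligodendrocytes, microglia, choroid plexus cells and Cajal-Retzius cells each held 2 of the 11, and Lhx6 interneurons, endothelial cells and mural cells each held 1. Of the 2534 class-specific genes at large, microglia held 687, endothelial cells 411, oligodendrocytes 297, choroid plexus cells 193, mural cells 72, Cajal-Retzius cells 25 and Lhx6 interneurons 17. The members nearest to the threshold from above were Kcna6, 2.66-fold and 2.07-fold over the next class, and Kcnab3, 2.23-fold and 2.19-fold. Just below it lay Kcnv1, 2.13-fold and 1.98-fold, and Kcnip3, 2.15-fold and 1.94-fold.

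In the choroid plexus, the epithelium that secretes cerebrospinal fluid, Kcnj13 (the inward rectifier Kir7.1) stood at 654 [621 to 688] and 511 [472 to 552] CPM, and the next class, vascular leptomeningeal cells (VLMCs), at 63.2 and 47.7 CPM. Kcne2, an accessory subunit that pairs with several Kv pores, was at 224 [205 to 244] and 169 [147 to 193] CPM in choroid plexus cells and at no more than 3.70 CPM in any other class of either library. Among the 69 members with enough UMIs, it had the widest margin over its next class, 60.4-fold and 110-fold. Its Kv7 partner Kcnq1 was instead led by endothelial cells at 50.9 [38.4 to 66.3] and 59.0 [46.5 to 73.7] CPM, with 7.37 and 4.78 CPM in choroid plexus cells. Kcnq1 rests on 55 and 77 UMIs, and its locus is overlapped on the opposite strand by the long noncoding Kcnq1ot1. Kcnh1, an EAG channel, also had its highest level in choroid plexus cells, 579.9 [549 to 612] and 848 [797 to 900.0] CPM, but was under 2-fold above the next class in PS19.

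Because Kcnj13 and Kcne2 were both led by choroid plexus cells, the RefSeq promoter windows of these genes (build GRCm38.p6, 250 bases before to 50 bases after a start) are shown, with a TATAAA match in capitals. Kcnj13 lies on the minus strand, and its window is chr1:87394680-87394979. Kcne2 lies on the plus strand and has a pair of windows, chr16:92292139-92292438 and chr16:92295366-92295665.
Kcnj13: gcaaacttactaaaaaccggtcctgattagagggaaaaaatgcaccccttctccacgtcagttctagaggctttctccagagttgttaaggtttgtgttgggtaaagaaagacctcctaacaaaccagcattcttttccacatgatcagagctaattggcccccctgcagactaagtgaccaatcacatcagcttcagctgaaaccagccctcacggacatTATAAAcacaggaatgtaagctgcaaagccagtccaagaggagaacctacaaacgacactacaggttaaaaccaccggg
Kcne2 first start: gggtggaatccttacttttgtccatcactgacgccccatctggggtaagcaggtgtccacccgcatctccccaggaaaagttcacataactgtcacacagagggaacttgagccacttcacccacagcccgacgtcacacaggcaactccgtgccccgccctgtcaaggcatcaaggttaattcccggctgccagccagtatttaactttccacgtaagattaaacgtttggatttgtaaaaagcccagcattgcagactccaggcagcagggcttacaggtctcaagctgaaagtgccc
Kcne2 second start: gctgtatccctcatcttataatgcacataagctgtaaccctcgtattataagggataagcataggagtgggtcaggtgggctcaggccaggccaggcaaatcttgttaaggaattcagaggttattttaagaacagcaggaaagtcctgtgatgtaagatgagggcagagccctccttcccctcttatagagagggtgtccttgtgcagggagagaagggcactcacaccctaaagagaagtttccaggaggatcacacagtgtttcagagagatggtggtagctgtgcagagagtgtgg
The search covered both strands. The window of Kcnj13 held TATAAA once, 29 bases before the start, and neither window of Kcne2 held it. TATAAA occurred in 13.6% of 32851 promoter windows of this length. TAATCC, which homeodomain factors of the Otx type can bind, occurred in 7.06% of all windows and in none of these 3. Windows were listed for 6 of the 11 class-specific members.

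Oligodendrocytes, the myelinating cells, led for a pair of Kv1 genes. Kcna1, a Shaker-type pore subunit known from axons near the nodes of Ranvier, was at 338 [326 to 349.6] and 281 [271 to 291] CPM in oligodendrocytes, and the highest neuronal class was at 98.0 CPM in PS19 and 82.0 CPM in PZKO. Kcna6 was at 168 [159 to 176] and 205 [196 to 214] CPM, with near-projecting neurons next at 63.0 and 99.0 CPM. The genes lie 61.9 kb apart on chromosome 6. Kcna2, which assembles with Kcna1 in axons, was spread over classes and was highest in Lhx6 interneurons at 99.0 and 69.7 CPM, with 57.5 and 58.6 CPM in oligodendrocytes.

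Microglia, the resident immune cells, led for Kcnj2 (the strong inward rectifier Kir2.1) at 164 [150.3 to 178] and 122 [111 to 135] CPM, and no other class exceeded 19.0 CPM. Kcnk6, the K2P channel TWIK2, was at 74.9 [65.8 to 84.9] and 69.5 [60.9 to 79.0] CPM, and no other class exceeded 8.42 CPM. Kcnk13 (THIK1), the K2P channel that carries the resting potassium current of microglia, was also highest there at 322 [303 to 342] and 349.8 [330.1 to 370.3] CPM but was nearly as high in oligodendrocytes, at 256 and 287 CPM. In CA3 pyramidal neurons it was at 0.121 and 0.581 CPM.

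Mural cells led for Kcnj8, which encodes the pore Kir6.1 of vascular ATP-sensitive channels, at 142 [107 to 185] and 167 [133 to 207] CPM, and endothelial cells followed at 29.6 and 32.9 CPM. The mural level rests on 54 and 83 UMIs in 110 and 138 nuclei. Kcnj8 (chr6:142564837-142571614, minus strand, GRCm38) lies 16.2 kb from Abcc9, the gene of its sulfonylurea receptor subunit, and Abcc9, one of the 10 genes that lead the mural cluster, was at 667 and 1027 CPM there.

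Cajal-Retzius cells, the reelin-secreting neurons of the marginal zone, led for Kcnb2, a Kv2 delayed rectifier, and for Kcnh7, an ERG-type channel. Kcnb2 was at 4016 [3704 to 4347] and 4975 [4691 to 5271] CPM there and at 1634 and 1797 CPM in the Itprid1/Tacr3 excitatory cluster, which came next. Kcnh7 was at 6221 [5831 to 6629.7] and 6721 [6390.3 to 7065] CPM, with the Shoc1/Teddm3 excitatory cluster next at 2801 and 2569.6 CPM. The class held 28 and 30 nuclei, and all of them had UMIs of both genes. Lhx6 interneurons, which include parvalbumin and somatostatin cells, led for Kcnab3, a cytoplasmic Kv beta subunit, at 41.9 [36.2 to 48.3] and 35.6 [31.7 to 39.8] CPM. Kcnab3 lost the call in 3 of 9 alternative processings, Kcnh7, Kcnj8 and Kcnq1 in 1 each, and the other 7 in none.

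**Figure D2:**
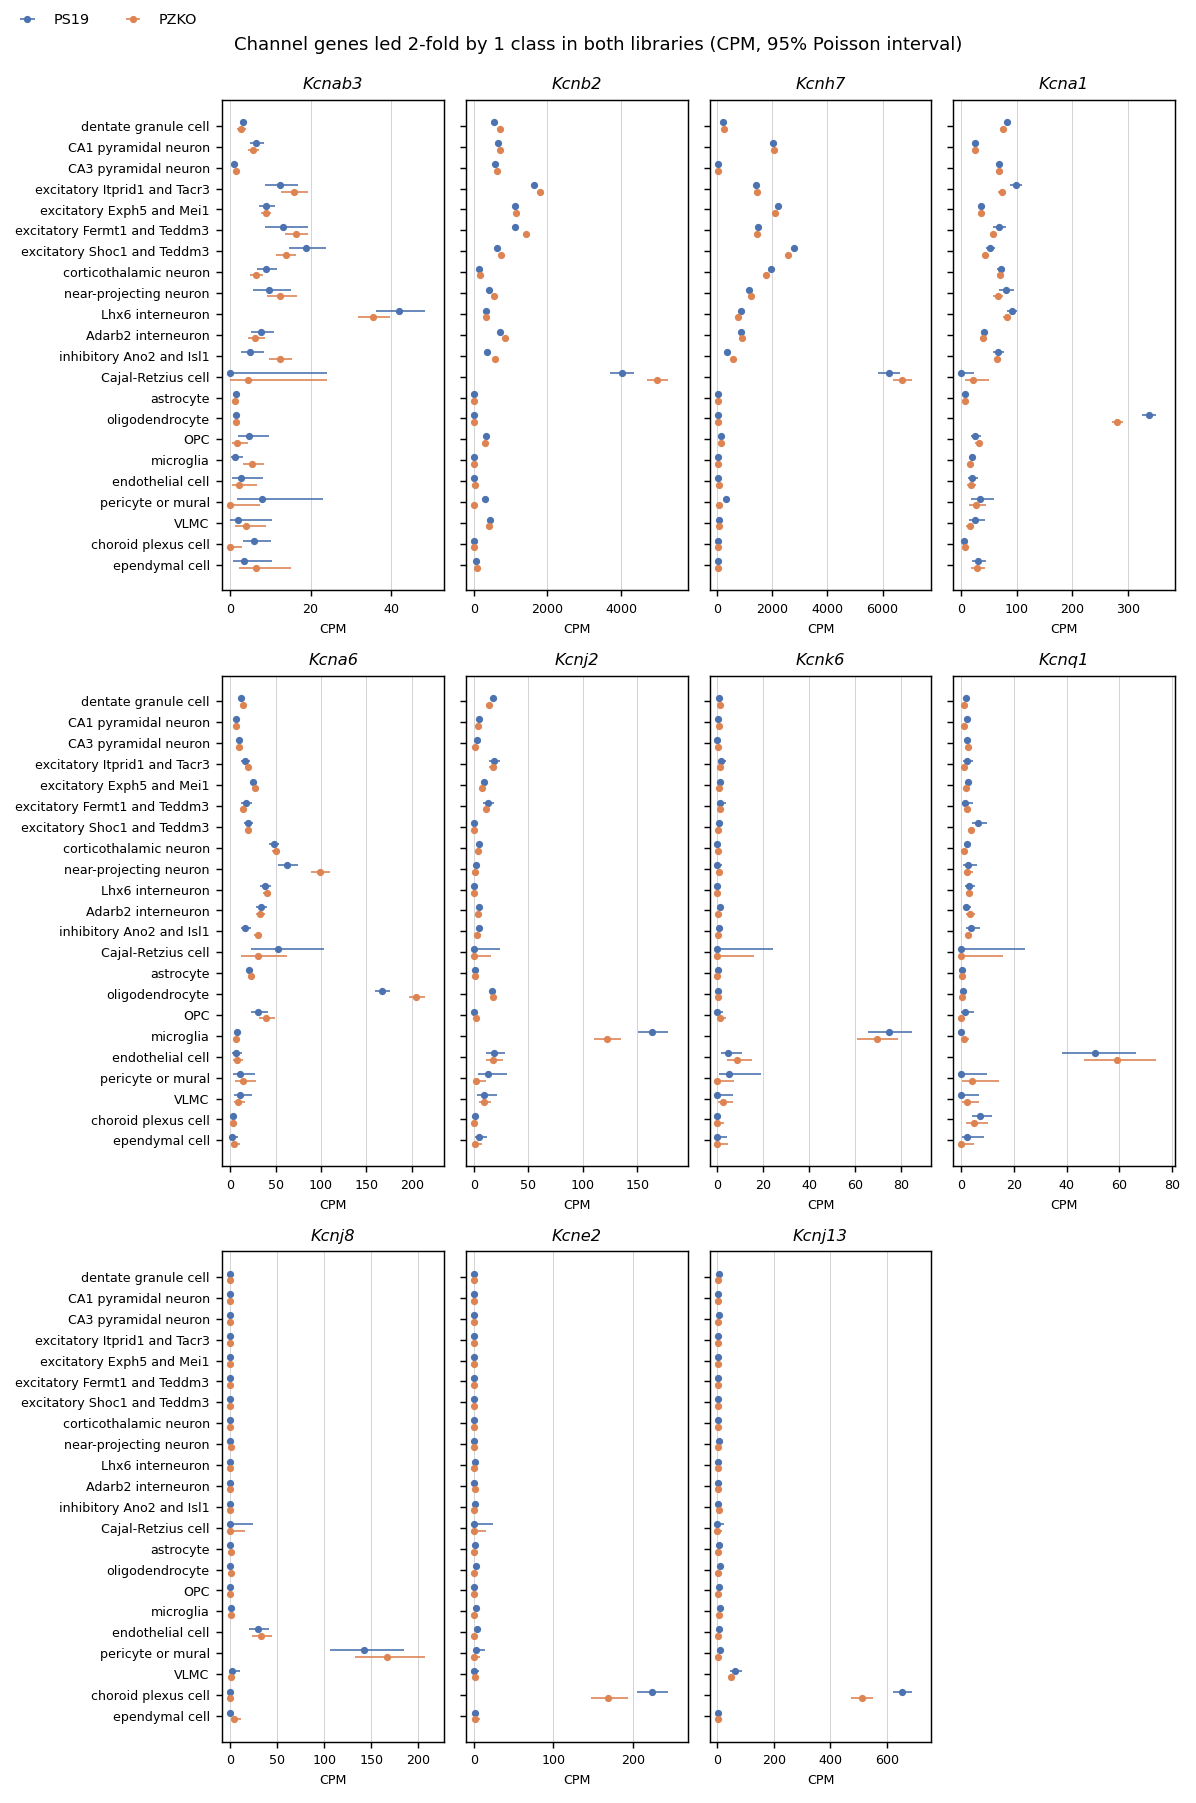
Levels of the 11 class-specific members by class, in CPM on the horizontal axis, with PS19 in blue, PZKO in orange and bars for the 95% Poisson interval. In each panel the leading class stands apart in both libraries, as for Kcne2 at 224 and 169 CPM in choroid plexus cells and Kcnh7 at 6221 and 6721 CPM in Cajal-Retzius cells.

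Among the other Kv1 genes, Kcna4, whose channels inactivate fast, was highest in dentate granule cells at 63.6 [59.7 to 67.8] and 60.7 [56.2 to 65.5] CPM and low in Lhx6 interneurons at 2.62 and 4.98 CPM.

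Kv3 channels are fast and permit rapid firing, and their genes differed between neuronal classes. Kcnc1 was at 359 [342 to 376] and 338 [326 to 350.2] CPM in Lhx6 interneurons and at 226 and 221 CPM in Adarb2 interneurons. Kcnc2 was at 2768 [2719.8 to 2816] and 3182 [3145 to 3220.1] CPM in Lhx6 interneurons, and at only 3.79 [2.87 to 4.89] and 7.26 [5.77 to 9.03] CPM in dentate granule cells, its lowest class. Kcnc4 was highest in the Itprid1/Tacr3 cluster at 37.3 and 37.5 CPM, next to dentate granule cells at 33.7 and 34.6 CPM, and its intervals in these classes overlapped in each library.

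Kcnd2, the Kv4 pore of the dendritic A-type current, was highest in CA1 pyramidal neurons at 4024 [3984 to 4064] and 4484 [4448 to 4519] CPM. OPCs were close behind at 3928 [3828 to 4030.1] and 3964 [3883 to 4046] CPM, while mature oligodendrocytes were at 38.4 and 48.6 CPM. Kcnd3 was highest in Adarb2 interneurons at 353 [335 to 372] and 419 [402 to 436] CPM and lower in CA1 pyramidal neurons at 77.5 and 117 CPM. The A-type genes thus had different leading classes in both libraries.

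The silent subunits form no channel alone and modify Kv2 pores. All 6 with a shared leading class were led by neurons. Kcng2 was highest in dentate granule cells at 72.1 and 84.8 CPM, and Kcng1 was highest there in PS19 (37.2 CPM) and in the Shoc1/Teddm3 cluster in PZKO (39.1 CPM). Kcns3 was at 93.9 and 89.3 CPM in Lhx6 interneurons and 80.5 and 83.8 CPM in Adarb2 interneurons, and at 0.392 and 0.0897 CPM in dentate granule cells. Kcns1 was led by the Itprid1/Tacr3 cluster at 31.0 and 28.2 CPM, Kcnv1 by the Exph5/Mei1 cluster at 48.2 and 36.9 CPM, Kcng3 by the Ano2/Isl1 inhibitory cluster at 17.7 and 22.6 CPM and Kcnf1 by near-projecting neurons at 22.9 and 15.1 CPM.

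Kv7 channels carry the M-current, which acetylcholine suppresses. Among the principal neurons of the hippocampus, Kcnq5 went from 21.7 [19.4 to 24.1] and 40.8 [37.1 to 44.7] CPM in dentate granule cells to 754 and 877 CPM in CA1 and 3125 [3087 to 3163] and 3302 [3267 to 3337] CPM in CA3 pyramidal neurons. Kcnq3, another M-current subunit, was highest in oligodendrocytes at 1179.9 [1158 to 1202] and 1313 [1291 to 1335] CPM, and the Exph5/Mei1 cluster came next at 965 and 988 CPM.

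EAG, ERG and ELK channels act on firing threshold and on excitability between spikes. Kcnh7 was at 2026 [1997 to 2055] and 2065 [2041 to 2089] CPM in CA1 and 30.4 [26.7 to 34.4] and 39.4 [35.7 to 43.4] CPM in CA3 pyramidal neurons, the reverse of the order of Kcnq5. Kcnh1 had the other order, at 56.8 and 73.2 CPM in CA1 and 149 and 178 CPM in CA3. Kcnh5 was highest in the Exph5/Mei1 cluster at 317 and 328 CPM and came next in OPCs at 194 and 196 CPM. Kcnh8 was highest in OPCs at 416 [384 to 450.0] and 405 [379.8 to 432] CPM, followed by near-projecting neurons at 327 and 265 CPM, and it was at 0.457 and 0.628 CPM in dentate granule cells. Kcnh4 was led by the Exph5/Mei1 cluster, at 24.2 and 36.1 CPM, and is itself among the 10 genes that lead this cluster.

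**Figure D3:**
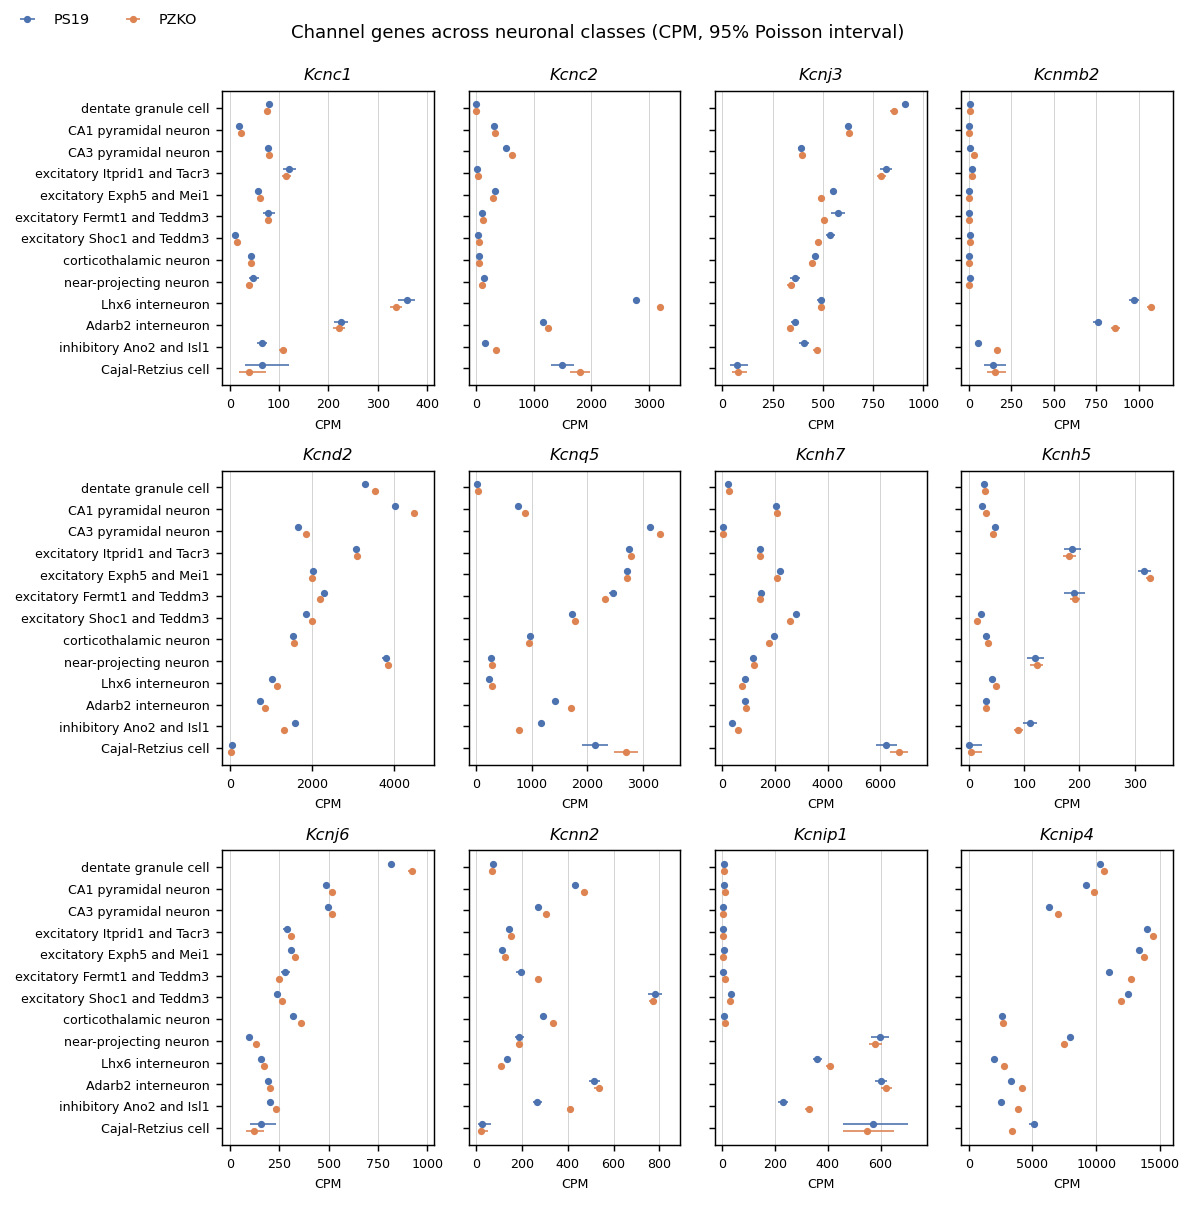
Levels of 12 members over the 13 neuronal classes, in CPM on the horizontal axis, with PS19 in blue, PZKO in orange and bars for the 95% Poisson interval. Kcnc2 and Kcnmb2 peak in interneurons, Kcnq5 in CA3 and Kcnj6 in dentate granule cells in both libraries.

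Inward rectifiers of the G-protein-gated (GIRK) type hold neurons at rest when inhibitory receptors are active. Kcnj3 and Kcnj6 were both highest in dentate granule cells, at 909 and 853 and 816 [802 to 831] and 921 [903 to 939] CPM, whereas Kcnj9 was highest in the Itprid1/Tacr3 cluster at 93.2 and 109 CPM. Kcnj9 lies 11.9 kb from Kcnj10 on chromosome 1, and these neighbours had different leading classes. Kcnj10 (Kir4.1), the main glial rectifier for potassium uptake, was at 142 [134 to 151] and 146 [139 to 153] CPM in astrocytes, 129 and 131 CPM in oligodendrocytes, 84.1 and 85.4 CPM in OPCs and 3.72 and 1.97 CPM in dentate granule cells. Its partner Kcnj16 was highest in OPCs at 94.9 and 64.9 CPM, with 61.6 and 57.7 CPM in astrocytes and only 5.09 and 4.82 CPM in oligodendrocytes. Kcnj16 lies 38.2 kb from the microglial Kcnj2 and was at 7.98 and 6.83 CPM in microglia. Kcnj4 was highest in dentate granule cells at 24.3 and 24.1 CPM. Kcnj11, the neuronal ATP-sensitive pore, was low throughout, at most 19.7 CPM in PS19 (3 UMIs in Cajal-Retzius cells) and 15.0 CPM in PZKO.

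K2P leak channels set resting conductance. Kcnk1 was highest in astrocytes at 124 [116 to 131] and 117 [111 to 124] CPM, followed by choroid plexus cells at 90.1 and 102 CPM. Kcnk2 (TREK1), a mechanosensitive leak channel, was highest in VLMCs at 575 [512 to 642] and 721 [676 to 769] CPM, with 128 and 137 CPM in astrocytes. Its relative Kcnk10 (TREK2) was highest in OPCs at 219 and 179 CPM, and astrocytes stood at 43.0 and 55.8 CPM. Kcnk5 was highest in VLMCs at 24.2 and 33.1 CPM. Kcnk9 (TASK3) was highest in Cajal-Retzius cells in PS19 (91.9 CPM, on 14 UMIs) and in corticothalamic neurons in PZKO (85.4 CPM). In CA1 pyramidal neurons it stood at 57.2 and 73.1 CPM. Kcnk3 (TASK1) was highest in Lhx6 interneurons in PS19 (38.4 CPM) and in mural cells in PZKO (88.4 CPM). Kcnk4 was the single K2P gene with a shared neuronal leading class, the Exph5/Mei1 cluster at 20.1 and 22.1 CPM. It overlaps Catsperz on the same strand, and reads of these genes may not be separable.

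Of the channels opened by calcium or sodium, Kcnma1, the BK pore, was highest in the Itprid1/Tacr3 cluster at 1996 and 2252 CPM and was at 371 and 495 CPM in microglia. The small-conductance genes differed. Kcnn2 was highest in the Shoc1/Teddm3 cluster at 780.2 [751 to 809.7] and 770.5 [753 to 789] CPM and was at 463 and 539.8 CPM in astrocytes. Kcnn3 was highest in the Ano2/Isl1 cluster at 227 [209.8 to 246] and 160.4 [150.5 to 171] CPM, with 106 and 142 CPM in astrocytes and 131 and 123 CPM in ependymal cells. Kcnn1 did not exceed 11.8 CPM in any class. Kcnt1 (Slack) was highest in VLMCs at 132 and 214 CPM and Kcnt2 in the Exph5/Mei1 cluster at 713 and 594 CPM.

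Among the accessory subunits some differed widely between interneurons and pyramidal neurons. Kcnmb2, a BK beta subunit that makes channels inactivate, was at 971 [943 to 1000.2] and 1068 [1047 to 1090.3] CPM in Lhx6 and 757 and 862 CPM in Adarb2 interneurons, and at 1.05 and 2.97 CPM in CA1 pyramidal neurons. It is among the 10 genes that lead the Lhx6 cluster. Kcnmb4, the main neuronal BK beta subunit, was highest in near-projecting neurons at 132 and 166 CPM and was at 6.02 and 8.65 CPM in Adarb2 interneurons. The calcium-binding Kv4 partners had separate leading classes. Kcnip1 was at 601 [578 to 625] and 622 [601 to 643] CPM in Adarb2 interneurons and 596 and 578 CPM in near-projecting neurons, but at 6.57 and 0.876 CPM in the Exph5/Mei1 cluster. It overlaps 4930469K13Rik on the same strand. Kcnip2 was highest in dentate granule cells at 106 and 100.1 CPM and close to that in CA3 at 101 and 87.3 CPM. Kcnip3 was highest in OPCs at 515 [479.6 to 553] and 577 [547 to 609] CPM, and Kcnip4 in the Itprid1/Tacr3 cluster at 14026 [13896 to 14158] and 14474 [14375 to 14573] CPM. Among the Kv beta subunits, Kcnab2 was highest in CA1 at 127 and 136 CPM, and Kcnab1 in CA1 in PS19 (864 CPM) and in mural cells in PZKO (1366 CPM).

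The libraries were compared within 23 classes and clusters that held over 50 nuclei in each, with oligodendrocytes split into clusters 6, 7 and 16 because these held different shares of the class in the libraries. A member counted as past the fold where its CPM differed by at least 1.5-fold in either direction (a log2 ratio of PZKO over PS19 of 0.58 or more) among members with at least 100 UMIs over both libraries. Of 79 calls past the fold whose interval excluded 0, 36 held in every alternative processing that gave a value. Subtracting a profile taken as free RNA, that of all kept nuclei of the library, gave no value for some of these 36. Among them were Kcnq5 and Kcnc2 in dentate granule cells and Kcnip4 and Kcnh7 in microglia. Neither a Leiden resolution of 0.5 nor separate clustering of the libraries gave a value in near-projecting neurons, the Fermt1/Teddm3 cluster or oligodendrocyte cluster 7. Separate clustering also gave none in oligodendrocyte cluster 6. Calls counted as held there were not checked by these settings. The share taken as free RNA was estimated as the median level of other cell types' markers in a class relative to all kept nuclei. It ran from 6.67% in Lhx6 interneurons of PZKO to 41.1% in VLMCs of PS19. Free RNA itself was not measured, and the estimate can be too high. It was too high for Kcnip4 in PS19 choroid plexus cells. The share there was 18.5%, while Kcnip4 stood at 33.4 CPM in these cells and at 6397 CPM over all kept nuclei. The median log2 ratio of the members was above that of all genes in 22 of the 23 comparisons. In CA1 pyramidal neurons, for example, it was 0.10 beside -0.06 for all genes and 0.09 for genes over 100 kb. Members and genes over 100 kb did not match in every class. The members' median was the lower in dentate granule cells (0.06 and 0.09). It was the higher in astrocytes (0.22 and 0.13) and, on 7 members, in endothelial cells (0.74 and 0.09). The median span of the 69 members was 52.5 kb, beside 27.4 kb for the genes that met the same minimum. The part of gene length in the members' medians was not tested. Other scalings moved the ratios of all genes in a class by at most 0.12, and by over 0.1 in VLMCs, OPCs and the Fermt1/Teddm3 cluster.

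In most neuronal classes few members passed the fold. In CA1 they were 2 of 47, beside 4.19% of all genes, and both were higher in PZKO. Kcng1 was at 5.33 and 12.2 CPM, a log2 ratio of 1.20 (95% interval 0.74 to 1.68), and Kcnd3 at 77.5 and 117 CPM, a ratio of 0.59 (95% interval 0.46 to 0.72). With the libraries clustered separately, the ratios were -0.18 and -0.24. In CA3 the count was 3 of 46, beside 4.98% of all genes, with Kcnh8 (0.82), Kcnn3 (0.78) and Kcnmb2 (2.05) higher. The UMIs of Kcnmb2 in CA3 came from 12 of 224 and 20 of 192 nuclei, and the 5 highest nuclei held 89.2% and 86.9% of them, and without the highest nucleus of each library the ratio was 2.50.

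Dentate granule cells had 5 of 52 members past the fold, beside 5.42% of all genes. Kcnq5 was higher at 21.7 and 40.8 CPM, a log2 ratio of 0.91 (95% interval 0.71 to 1.12), and it was a member with low levels in this class, as were Kcnc2 (0.94), Kcnk13 (0.75) and Kcnk3 (0.69). Kcnj11 was lower at 10.4 and 6.81 CPM, a ratio of -0.62 (95% interval -1.03 to -0.21), and lost the call in 5 of 11 alternatives, among them TMM scaling at -0.53. Kcnk13 was at 0.38 as a mean over nuclei. Abundant channel genes of granule cells that lay within the fold were Kcnj3 at 909 and 853 CPM and Kcnd2 at 3297 and 3528 CPM.

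Corticothalamic neurons had 5 of 52 members past the fold (4.57% of all genes) and near-projecting neurons 4 of 41 (5.92%). Kcna2 was lower in both, at 43.3 and 26.8 CPM with a log2 ratio of -0.69 (95% interval -0.94 to -0.44) and at 59.5 and 34.9 CPM with a ratio of -0.77 (95% interval -1.14 to -0.40). Kcnj11 (-0.76) and Kcnj4 (-0.59) were also lower in corticothalamic neurons, and Kcnh4 (0.97) and Kcnip1 (0.98) were higher. In near-projecting neurons Kcna6 (0.65) and Kcnk10 (0.82) were higher, and Kcnf1 was lower with an interval that reached 0. Both calls of Kcna2 held in every alternative that gave a value. In near-projecting neurons neither a Leiden resolution of 0.5 nor separate clustering of the libraries gave one, so these settings did not check that call. In corticothalamic neurons Kcnj4 lost the call in 8 of 11 alternatives, among them TMM scaling at -0.55, and with the libraries clustered separately Kcnj11 was at -0.48 and Kcnip1 at -3.86. At a Leiden resolution of 0.5, 3 of the 5 calls of corticothalamic neurons were lost. In near-projecting neurons Kcnk10 was at 0.51 with the stricter filter.

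The excitatory clusters had counts below or near those of all genes. In the Exph5/Mei1 cluster 3 of 57 members passed the fold (4.89% of all genes), with Kcng1 (0.68) and Kcns1 (0.62) higher and Kcnk2 lower at 85.1 and 55.5 CPM, a log2 ratio of -0.62 (95% interval -0.75 to -0.48). The Itprid1/Tacr3 cluster had 3 of 50 (5.34%), Kcnip2 (1.06), Kcnc2 (0.70) and Kcnh4 (0.61), all higher. With the libraries clustered separately, Kcng1 and Kcnk2 in the Exph5/Mei1 cluster were at -0.36 and -0.43. Kcnc2 and Kcnh4 in the Itprid1/Tacr3 cluster were then at -0.21 and 0.43. Kcnip2 had no value in that setting, so its call was not checked by it. At a Leiden resolution of 0.5 all 3 calls of the Exph5/Mei1 cluster were lost, with Kcns1 at 0.57. The Shoc1/Teddm3 cluster had 2 of 47 (5.84%), Kcna4 (0.75) and Kcnd3 (0.61), both higher, and Kcnd3 was at 0.51 with the stricter filter. In the Fermt1/Teddm3 cluster, with 94 PS19 nuclei, 3 of 48 were higher (11.0% of all genes), Kcnn3 at 0.76 and Kcns3 and Kcnk4 with intervals that held 0.

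In Lhx6 interneurons 0 of 40 members passed the fold, beside 5.3% of all genes, and in Adarb2 interneurons 1 of 40, beside 6.46%, Kcnn3 at 16.6 and 29.5 CPM with a log2 ratio of 0.83 (95% interval 0.42 to 1.26), which was 0.51 as a mean over nuclei. The Ano2/Isl1 inhibitory cluster was the exception, with 15 of 43 members past the fold, beside 14.3% of all genes. Kcnmb2 (1.56), Kcnh8 (1.34), Kcnc2 (1.08), Kcnj9 (0.85), Kcna6 (0.84), Kcnc1 (0.73), Kcnk3 (0.72), Kcnh7 (0.69), Kcnk10 (0.68), Kcnb2 (0.66), Kcnip4 (0.62) and Kcnn2 (0.62) were higher in PZKO. Kcna4 (-0.86), Kcnab1 (-0.82) and Kcnq5 (-0.61) were lower, and Kcnq5 was at 0.0056 with doublets kept. Of these 15 calls, 13 were lost at a Leiden resolution of 0.5, 12 with doublets kept and 8 with the libraries clustered separately, and that of Kcnmb2 alone held in every alternative. At the lower resolution Kcnc2 was at 0.16, Kcnj9 at 0.20 and Kcna4 at -0.21. Kcnab1 stood at 631 and 357 CPM and Kcnc2 at 161 and 342 CPM. This cluster held 129 and 161 nuclei and met no single list of markers, and whether the same mixture of neurons was sampled in both libraries was not tested.

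**Figure D4:**
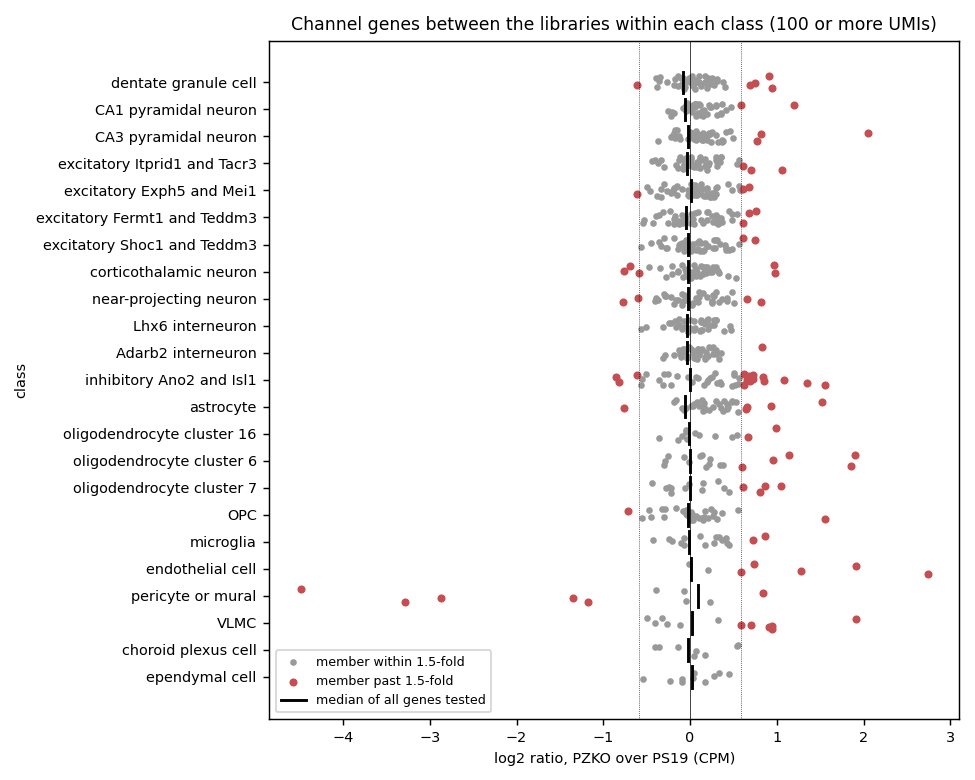
Log2 ratio of PZKO over PS19 (horizontal axis) of every member with at least 100 UMIs in each of 23 classes and clusters (vertical axis), with red points past 1.5-fold in either direction, dotted lines at that fold and black bars at the median of all genes tested. Grey points lie within the fold, and the lowest red points, down to -4.49, are those of mural cells.

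Among glia, astrocytes had 5 of 35 members past the fold, beside 7.28% of all genes. Kcnt1 was higher at 20.5 and 32.2 CPM, a log2 ratio of 0.65 (95% interval 0.38 to 0.93), and so were Kcnb2 (1.52), Kcnq5 (0.93) and Kcnc4 (0.65), while Kcns1 (-0.76) was lower. The astrocytes fell into clusters 4 and 8, which also held different shares of the class in the libraries, and within them the ratio of Kcnt1 was 0.55 and 0.52, under the fold in both. Kcnq5 was at 0.89 and 1.43 there, Kcns1 at -0.60 in cluster 4 and Kcnc4 at 0.65 in cluster 8. With doublets kept, Kcnq5 in the whole class was at 0.46 and Kcnb2 at 0.76, and Kcnc4 was at 0.46 as a mean over nuclei. Kcnb2 stood at only 3.09 and 8.85 CPM on 25 and 98 UMIs, and astrocytes were its lowest class in both libraries. Subtraction of free RNA gave no value for Kcnb2 or Kcnq5. The channels led by astrocytes lay within the fold, Kcnj10 at 142 and 146 CPM and Kcnk1 at 124 and 117 CPM. The summed level of 14 markers of excitatory and inhibitory neurons in astrocytes was 537 and 549.9 CPM.

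In OPCs 2 of 31 members passed the fold (8.8% of all genes). Kcnc2 was higher at 31.0 and 91.0 CPM, a log2 ratio of 1.56 (95% interval 1.09 to 2.05), and Kcnk2 lower at 170.3 and 104 CPM, a ratio of -0.72 (95% interval -0.98 to -0.45), which was -0.56 with doublets kept. The neuronal markers summed in OPCs to 982 and 938 CPM. Kcnc2 stood at 2768 and 3182 CPM in Lhx6 interneurons, and subtraction of free RNA gave no value for it in OPCs. The part of free RNA in its ratio was not tested.

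Microglia had 2 of 17 members past the fold (5.87% of all genes). Both are genes that neurons express far higher, Kcnip4 at 43.9 and 80.2 CPM in microglia with a log2 ratio of 0.87 (95% interval 0.57 to 1.17) and Kcnh7 at 12.6 and 20.8 CPM with a ratio of 0.72 (95% interval 0.15 to 1.32). The 14 neuronal markers summed to 333 and 337 CPM in microglia. The microglial channels were within the fold. Kcnj2 was at 164 and 122 CPM, a ratio of -0.42 (95% interval -0.61 to -0.23) whose interval lay below 0, Kcnk13 had a ratio of 0.12 with an interval that held 0, and Kcnk6 a ratio of -0.11 (95% interval -0.37 to 0.16).

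In oligodendrocytes 5 of 17 members passed the fold in cluster 6 (5.86% of all genes), 4 of 16 in cluster 7 (4.95%) and 2 of 13 in cluster 16 (6.36%), and all were higher in PZKO. Kcnip4 was among them in each cluster, with log2 ratios of 1.86, 0.80 and 1.0. In cluster 6, 1 PZKO nucleus held 51.3% of the Kcnip4 UMIs and 44.7% of the Kcnq5 UMIs. Without the highest nucleus of each library the ratio of Kcnip4 was 0.85, and that of Kcnq5 went from 1.90 to 1.11. Kcnd2 (0.96) and Kcnh7 (1.14) were also past the fold in cluster 6, and Kcnh7 (1.04) and Kcnq5 (0.86) in cluster 7. In cluster 6 Kcnd2 lost the call with doublets kept and at a Leiden resolution of 0.5, where it was at 0.30. The neuronal markers summed to 499 and 697 CPM in cluster 6, to 363 and 414 CPM in cluster 7 and to 395 and 447 CPM in cluster 16, and all 14 had UMIs there. Of the oligodendrocyte channels, Kcna1 was at 344 and 288 CPM in cluster 6 and 345 and 297 CPM in cluster 7, with ratios of -0.26 (95% interval -0.41 to -0.11) and -0.22 (95% interval -0.34 to -0.09).

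Endothelial, mural and leptomeningeal cells had the highest shares of members past the fold among the 23 comparisons, on few members each. Endothelial cells had 5 of 7 members (5.19% of all genes), Kcnip4 (2.74), Kcnq5 (1.91), Kcnq3 (1.27), Kcnd2 (0.74) and Kcnma1 (0.59), all higher. The neuronal markers summed to 342 and 398 CPM, and a single PZKO nucleus held 44.4% of the Kcnip4 UMIs, without which and its PS19 counterpart the ratio of Kcnip4 was 1.95. Treated likewise, Kcnq5 was at 1.49, Kcnd2 at 1.53 and Kcnma1 at 0.57. With doublets kept, the ratio of Kcnip4 was -0.23. VLMCs had 6 of 12 members past the fold (13.9% of all genes), all higher, Kcnq5 (1.92), Kcnip4 (0.94), Kcnip3 (0.94), Kcnd3 (0.92), Kcnt1 (0.70) and Kcnt2 (0.59), and the neuronal markers summed to 346 and 522 CPM there. With doublets kept, Kcnt1 and Kcnt2 in VLMCs were at 0.57 and 0.43, and Kcnip4 was at 0.49 as a mean over nuclei.

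Mural cells had 6 of 10 members past the fold (17.9% of all genes), 5 of them lower in PZKO. Kcnip4 was at 2877 and 295 CPM, a log2 ratio of -3.28 (95% interval -3.54 to -3.03), and Kcnb2 at 315 and 14.1 CPM, a ratio of -4.49 (95% interval -5.83 to -3.40). Kcnh7 (-2.87), Kcnq3 (-1.35) and Kcnd2 (-1.17) were lower as well. These are genes that neurons express highly, their UMIs sat in few nuclei, and the neuronal markers summed to 814 and 438 CPM in mural cells. In PS19, 5 of 110 mural nuclei held all UMIs of Kcnh7, and the 5 highest nuclei held 99.2% of the UMIs of Kcnb2 and 98.8% of those of Kcnip4. Without the highest nucleus of each library the ratios were -4.08 for Kcnip4, -2.08 for Kcnh7 and -2.79 for Kcnd2. The direction of Kcnip4 and Kcnd2 turned with the libraries clustered separately (2.41 and 2.43), and that of Kcnh7 when nuclei were weighted equally (0.20). Kcnab1 was higher at 762 and 1366 CPM, a ratio of 0.84 (95% interval 0.64 to 1.05), in 18 and 36 nuclei. Kcnj8 lay within the fold, with a ratio of 0.23 (95% interval -0.28 to 0.76).

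Choroid plexus cells had 0 of 8 members past the fold (6.46% of all genes) and ependymal cells 0 of 10 (7.95%). Kcnj13 had a log2 ratio of -0.36 (95% interval -0.49 to -0.22) and Kcne2 a ratio of -0.41 (95% interval -0.64 to -0.17) in choroid plexus cells, both with intervals below 0, and Kcnh1 a ratio of 0.55 (95% interval 0.43 to 0.66). Over all 11 glial, vascular and ventricular comparisons 37 of 176 pairs of a member and a class passed the fold (21%), beside 7.17% of the pairs of all genes. After a profile of free RNA was subtracted the count was 15, of which 7 were shared. Subtraction gave no value for the calls of microglia, endothelial cells and oligodendrocyte clusters. No call that had an interval excluding 0 and kept a value was lost. The subtraction can take away all UMIs of a gene, and a call without a value could be neither held nor lost. Whether the calls without a value would stay past the fold therefore cannot be told from it. Over the 12 neuronal comparisons 46 of 563 pairs passed (8.17%), beside 6.38% of the pairs of all genes, and after subtraction the count was 48, with 34 shared.

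**Figure D5:**
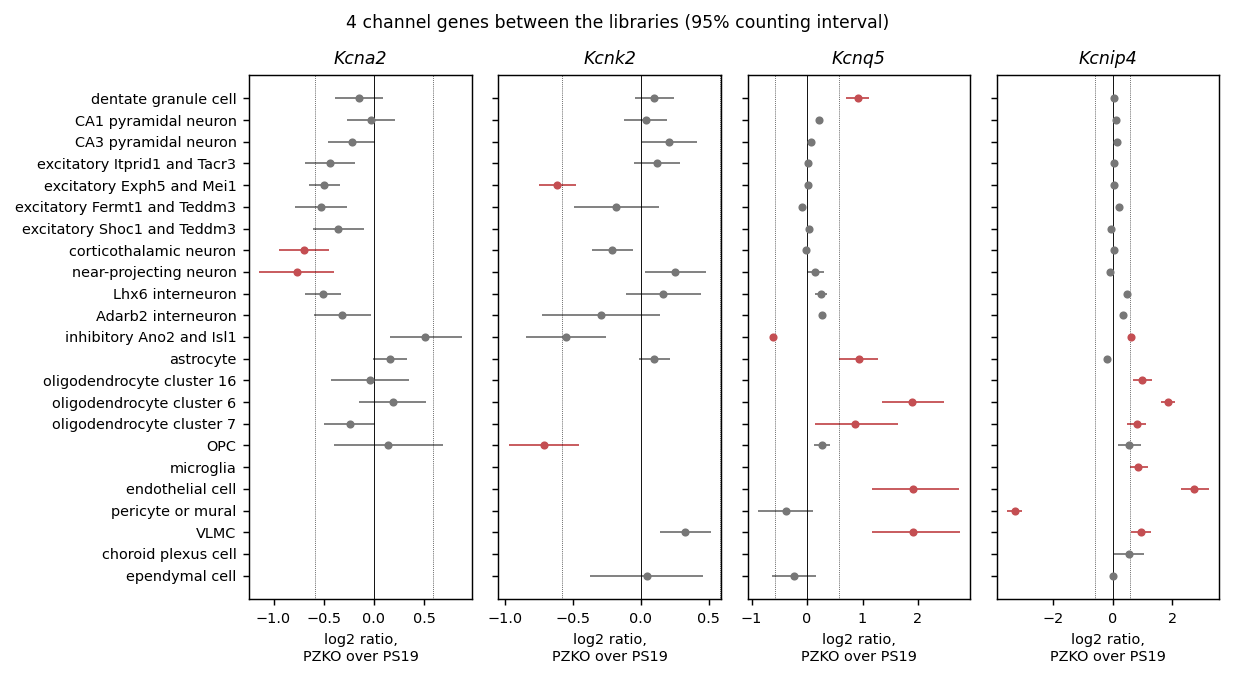
Log2 ratio of PZKO over PS19 (horizontal axis) with its 95% interval for Kcna2, Kcnk2, Kcnq5 and Kcnip4 in each class or cluster with at least 100 UMIs (vertical axis), red where past 1.5-fold. Kcna2 lies below 0 in 13 of 17 comparisons, and Kcnip4 is near 0 in most neurons, above 0 in oligodendrocytes and endothelial cells and at -3.28 in mural cells.

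Several genes lay on the same side of 0 in most comparisons, although the comparisons share their libraries and are not independent. How many of all genes lay as far to one side is not given, so these genes cannot be called unusual. Kcna1 was above 0 in 3 of 18 (median log2 ratio -0.15) and Kcna2 in 4 of 17 (median -0.24). Kcnv1 was above 0 in 0 of 6, Kcnj4 in 0 of 7 and Kcnj2 in 0 of 7. On the other side, Kcnq3 was above 0 in 19 of 21 (median 0.28), Kcnj6 in 12 of 13 (0.13), Kcnc4 in 8 of 8 (0.24) and Kcnmb2 in 6 of 6 (0.23). Each of these medians is smaller than 1.5-fold. Kcnn3 was past the fold and higher in 3 of 13 and Kcnd3 in 3 of 17. These genes differ in length, from 5.99 kb for Kcna1 and 13.9 kb for Kcna2 to 155 kb for Kcnn3 and 300.3 kb for Kcnq3. Among genes at large, those under 20 kb had a median log2 ratio below 0 in every comparison, from -0.29 to -0.07. Kcna1, Kcna2, Kcnv1 and Kcnj2 are under 20 kb. Kcnc4 and Kcnj4, which lay on opposite sides of 0, span 21.25 and 21.5 kb. The part of length in the ratios was not tested.

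Other genes of potassium handling were taken from lists. Over all 23 comparisons 2.31% of the pairs of a gene and a class were higher past the fold and 4.36% lower, so that lower calls were the more frequent among genes at large. Of 12 accessory genes outside the symbol pattern, 9 met the minimum and Abcc9 was class-specific, and over 133 pairs of a gene and a class 11 were higher past the fold and 5 lower. Dpp10, a Kv4 partner, was highest in corticothalamic neurons at 13873 and 14152 CPM. Among the hyperpolarization-activated HCN genes, Hcn2 was led by oligodendrocytes at 188 and 135 CPM, and 2 of 36 pairs were higher and 1 lower. For the sodium-potassium pump, which builds the potassium gradient, the pairs past the fold all lay below 0. Of its 132 pairs 20 were lower past the fold and 0 higher. Atp1b2, its glial beta subunit, was class-specific to astrocytes at 463 and 279 CPM. It was lower past the fold in 10 of 20 comparisons, with a median log2 ratio of -0.57, beside 4 of 23 comparisons for Atp1b1. Its level was far lower in neurons such as dentate granule cells (28.9 and 16.9 CPM) and CA3 pyramidal neurons (9.68 and 6.39 CPM). The comparisons share their libraries and are not independent, and the part of free RNA in these ratios was not tested. Of the 66 pairs of cation-chloride cotransporters, 1 was higher and 1 lower. Of 154 pairs of 8 nuclear long noncoding RNAs, listed as transcripts that stay in the nucleus, 12 were higher and 5 lower.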

How the data were processed

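Hippocampal nuclei of 1 pooled PS19 and 1 pooled PZKO library of male mice aged 9 months were profiled with 10x Genomics 3′ chemistry. The deposited values are raw UMI counts that the authors made with Cell Ranger on mm10, as whole numbers per gene and nucleus without normalization. The submitters' processing notes name Cell Ranger 7.0.1 and the matrix headers 8.0.1. The ambient RNA correction and the removal of nuclei and doublets described in the methods are not part of these counts, so that free RNA and doublets can add neuronal transcripts to other classes.

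Nuclei with under 600 UMIs, under 300 genes or over 5% mitochondrial UMIs were removed, which left 10466 PS19 and 10128 PZKO nuclei, and the highest Scrublet scores were taken out at 0.8% per 1000 nuclei (876 and 821). The libraries were clustered together with scanpy 1.11.5 on 2000 variable genes without the potassium channel genes, 30 principal components, 20 neighbours and a Leiden resolution of 1. Clusters were named from marker lists, with naming thresholds set after the clusters were seen, and 6 unnamed clusters were left out. Levels of genes among those that lead a cluster are descriptions, and no clusters were compared by size.

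UMIs were summed per class and library and scaled to CPM. Levels have exact Poisson and log2 ratios exact conditional binomial (Clopper-Pearson) 95% intervals. Ratios needed 100 UMIs over both libraries and 50 nuclei per library, and leading classes 50 UMIs. The kept nuclei held 100729375 and 151995959 UMIs. With 1 library per genotype no test was made. Members named are those specific to a class, those past 1.5-fold with an interval outside 0, and a list of well-known channels, and others named were chosen after their values were seen. The members and lists were chosen with earlier results of these data known. Alternatives were other scalings (edgeR 4.0.16 TMM and DESeq2 1.42.0 size factors, with no test of either tool), count minimums, filters, doublets kept, ambient subtraction, other clusterings and, added after seeing the data, leaving out the nucleus with the most UMIs of a gene. The ratio computation was tested on simulated data. Gene positions came from GENCODE M21 (GRCm38) and promoter windows from RefSeq (GRCm38.p6). Overlapping genes were not resolved. Some members and genes of the lists enter the counts but are not reported here by name.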

Additional observations from a re-analysis of the deposited data

Results flagged for a closer look

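For 9 members the ratio of PZKO over PS19 was past 1.5-fold upward in one class and downward in another. How many of all genes did so was not counted, so 9 cannot be called many or few. Over the 23 comparisons 11.2% of the pairs of a member and a class passed the fold, beside 6.67% for all genes. The difference between the classes was not tested, since each genotype had 1 library. Given as the highest and the lowest log2 ratio, Kcna4 was at 0.75 in the Shoc1/Teddm3 excitatory cluster and -0.86 in the Ano2/Isl1 inhibitory cluster, Kcnab1 at 0.84 in mural cells and -0.82 in the Ano2/Isl1 cluster, and Kcns1 at 0.62 in the Exph5/Mei1 excitatory cluster and -0.76 in astrocytes. Kcnq5 was at 1.92 in VLMCs and -0.61 in the Ano2/Isl1 cluster. The other 5 had their lowest value in mural cells. Kcnb2 was at 1.52 in astrocytes and -4.49 in mural cells, Kcnd2 at 0.96 in oligodendrocyte cluster 6 and -1.17 in mural cells, and Kcnh7 at 1.14 in oligodendrocyte cluster 6 and -2.87 in mural cells. Kcnip4 was at 2.74 in endothelial cells and -3.28 in mural cells, and Kcnq3 at 1.27 in endothelial cells and -1.35 in mural cells. In mural cells of PS19 the 5 highest nuclei held between 87.8% and 100% of the UMIs of these 5 genes. Astrocytes were the lowest class of Kcnb2 in both libraries, at 3.09 and 8.85 CPM.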

How the results depend on the processing

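No paired analysis was possible because each genotype had 1 library. The number of class-specific members was 22 with 1.5-fold over the next class and 17 at a Leiden resolution of 0.5, and between 11 and 14 in the other 7 alternatives. The count past the fold in neuronal classes was 126 at a minimum of 20 UMIs, 198 with no minimum, and 78 with each library clustered on its own, where the same 10 classes held 39. In the other classes it was 140 at a minimum of 20 UMIs, 328 with no minimum, 15 after ambient subtraction, and 73 with doublets kept, where the same 10 classes held 33. The lower minimums admit more genes, and the cause of the other shifts was not tested. The pairs tested and the shares of all genes under each alternative are not given here. These counts therefore cannot be set against genes at large. Of the log2 ratios past the fold recomputed under the alternatives, 674 moved by less than counting error, 97 moved by more and 11 reversed. These counts include the other scalings, which moved ratios by at most 0.12, and so are no measure of stability under the other settings. With each library clustered on its own, Kcng1 and Kcnd3 in CA1 went to -0.18 and -0.24, Kcnip1 in corticothalamic neurons to -3.86, Kcng1 in the Exph5/Mei1 cluster to -0.36, Kcnc2 in the Itprid1/Tacr3 cluster to -0.21, and Kcnip4 and Kcnd2 in mural cells to 2.41 and 2.43. With doublets kept, Kcnip4 in endothelial cells went to -0.23 and Kcnq5 in the Ano2/Isl1 cluster to 0.0056. Kcnh7 in mural cells was at 0.20 as a mean over nuclei, and Kcnd2 there at 3.22 with the stricter filter. For 10 pairs of a class and a setting no member had a value, under a Leiden resolution of 0.5, separate clustering, the stricter filter or doublets kept. Single calls lacked a value in further settings. Ambient subtraction gave none for the calls of endothelial cells, microglia and oligodendrocytes. It gave values for 1 of 6 calls in mural cells, 2 of 6 in VLMCs, 1 of 2 in OPCs and 2 of 5 in dentate granule cells. No call that kept a value under it was lost, but the calls without a value were not checked by it. Depth limits the low genes, since 23 members never reached 50 UMIs in a class of each library.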
